A study of Rattus norvegicus with 4 samples.

Results

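The NF-kB subunits and the IkB proteins are a family of 10 genes, of which 8 could be followed in rat aortic smooth muscle cells, through 11 of the 31099 probe sets on the array. A probe set was taken when the platform annotation gave it exactly 1 gene symbol and that symbol belonged to the family. The subunits measured were Nfkb1, Nfkb2, Rela and Relb, with 1 probe set each. The IkB proteins measured were Nfkbia and Nfkbib, with 1 probe set each, Nfkbiz with 2 and Bcl3 with 3. Rel and Nfkbie were the only symbol of no probe set listed and are not analysed here.

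After 24 hours with IL-1b, transcripts of all 4 measured subunits and of 3 of the 4 measured IkB proteins were higher than with vehicle, and the fourth, Bcl3, did not pass the test. Nfkbia rose 12.4-fold and Nfkbiz 6.55-fold. Nfkbib, Relb and Nfkb2 rose between 3.32-fold and 3.36-fold, Nfkb1 rose 2.40-fold and Rela 1.73-fold. Of 10000 genes tested, 7.19% were called higher and 8.13% lower, beside 7 of 8 higher and 0 of 8 lower in the family.

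NF-kB is a family of transcription factors that work as pairs of subunits sharing a Rel homology region, with which they bind DNA and each other. In resting cells the IkB proteins, built of ankyrin repeats, hold the pairs in the cytoplasm. A kinase complex switched on by IL-1 and similar signals marks the classical IkB proteins for ubiquitination and destruction, which frees the pairs to enter the nucleus. Several genes of the family are themselves known targets of NF-kB, so that new IkB made after a stimulus ends the first wave of activity. In the arterial wall this pathway is known for switching on cytokine, chemokine and adhesion genes during injury and atherosclerosis.

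The cells came from the aorta of Sprague-Dawley rats and were kept in culture, growing for 5 days with 10% serum and then resting for 3 days without serum. After that, 2 samples received IL-1b at 2.5 ng/mL and 2 received the vehicle, 0.1% bovine serum albumin, each for 24 hours. Whether samples of a group are separate cultures is not in the labels, so the p-values cover the spread among these 4 samples, possibly a technical one. Each sample has 1 array, and the question here is how the cytokine shifts transcripts of the NF-kB system, subunits against inhibitors.

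Values are MAS5 intensities, a background-corrected brightness per probe set with every array scaled to the same trimmed mean of 250.1. IL-1b replicate 1 stood apart. On the log2 scale IL-1b replicate 2 correlated with it at Pearson r = 0.903 over all probe sets, below its own correlations with the vehicle arrays (0.909 and 0.920) and that between the vehicle arrays (0.948). With that array left out, the log2 fold changes of the members over vehicle ran from 0.62 in Rela to 3.65 in Nfkbia. Relative to vehicle, the added hybridisation controls of IL-1b replicate 1 were 3.53 times as bright and those of IL-1b replicate 2 were 0.957 times as bright. The background of IL-1b replicate 1, taken from 27 dim bacterial control probe sets as their 95th percentile, was 76.7. It was 18.8 on IL-1b replicate 2 and 29.3 and 26.9 on the vehicle arrays. All 9 smooth muscle markers were above background except Synpo2 on IL-1b replicate 1, and their summed intensity was 13651 and 12402 with IL-1b, against 40471 and 40939 with vehicle. The 8 leukocyte markers measured summed to 1742 and 2046 with IL-1b, against 771 and 676 with vehicle, with 4 and 6 of them above background, against 3 and 2. Cd14 and Lyz2 made up most of the sum with IL-1b. Lyz2 had 685 and 969 with IL-1b, against 3.83 and 10.2 with vehicle, and Cd14 had 796 and 950, against 616 and 578. Cd68 had 40.2 and 32.5 with IL-1b, against 10.8 and 5.55, and Csf1r had 16.7 and 28.8, against 55.5 and 49.8. Itgam was below background on all 4 arrays and Ptprc above it on IL-1b replicate 1 alone. The 4 adventitial fibroblast markers summed to 776 and 560 with IL-1b, against 167 and 165 with vehicle, with 4 above background on each IL-1b array and 3 on each vehicle array. The 7 endothelial markers summed to 269 and 127 with IL-1b, against 131 and 186 with vehicle, with 0 and 3 of them above background, against 2 and 2, and with Pecam1, Vwf, Cldn5 and Tie1 below background on every array. The part of other cell types in the changes of the family was not tested, and in such bulk samples fewer cells of a type and less RNA per cell cannot be told apart.

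The promoters are shown to describe the letters near the start, and a link between these letters and the changes was not tested. RefSeq promoter windows on the rat build GRCr8, from 250 bases before to 50 bases after an annotated transcript start, were found for 9 of the 10 genes, all but Relb. They were searched on both strands for the kB consensus, the 10-base site that NF-kB pairs bind. At least 1 match was present in 7 of the 9 windows, against 7.5% of all 33469 windows. Among the 7 members with both a window and an array value, the match was present in 5 (Nfkbia, Nfkbiz, Nfkb2, Nfkb1 and Bcl3) and not in the windows of Rela and Nfkbib. With a match, Nfkbia rose 12.4-fold, Nfkbiz 6.55-fold, Nfkb2 3.34-fold and Nfkb1 2.40-fold, and Bcl3, at 3.52-fold, did not pass the test. Without a match, Nfkbib rose 3.32-fold and Rela 1.73-fold. Below, 5′ to 3′ on the strand of the gene, are the 100 bases before and the first 30 bases after the start, with the match in capitals: Nfkbia at chr6:78597043-78597172 (minus strand), Nfkbiz at chr11:58251621-58251750 (plus), Nfkb2 at chr1:255108274-255108403 (plus), Nfkb1 at chr2:226805433-226805562 (minus), Bcl3 at chr1:88613526-88613655 (minus) and, for comparison, Rela at chr1:212354236-212354365 (plus).
Nfkbia: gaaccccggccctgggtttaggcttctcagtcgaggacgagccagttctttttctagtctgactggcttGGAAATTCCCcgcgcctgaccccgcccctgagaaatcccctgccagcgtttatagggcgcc
Nfkbiz: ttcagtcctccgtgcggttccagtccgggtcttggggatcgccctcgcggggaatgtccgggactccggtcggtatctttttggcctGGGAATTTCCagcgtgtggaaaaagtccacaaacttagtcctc
Nfkb2: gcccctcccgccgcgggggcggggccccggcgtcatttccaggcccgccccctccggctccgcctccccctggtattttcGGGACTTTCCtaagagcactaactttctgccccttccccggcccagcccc
Nfkb1: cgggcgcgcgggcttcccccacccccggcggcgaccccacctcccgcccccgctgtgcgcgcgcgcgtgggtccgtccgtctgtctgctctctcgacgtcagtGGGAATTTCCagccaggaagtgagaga
Bcl3: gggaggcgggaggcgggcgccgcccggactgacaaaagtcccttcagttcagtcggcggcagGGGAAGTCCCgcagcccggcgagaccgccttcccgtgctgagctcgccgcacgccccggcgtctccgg
Rela: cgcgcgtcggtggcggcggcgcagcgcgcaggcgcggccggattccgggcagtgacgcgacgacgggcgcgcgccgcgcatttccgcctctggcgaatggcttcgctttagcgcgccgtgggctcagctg

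Read on its own strand, the match was GGGAATTTCC in Nfkbia, Nfkbiz and Nfkb1. These exact letters, on either strand, were found in 25 of all windows (0.075%), and 3 of those 25 belonged to the family. The match in Nfkbia lay on the opposite strand, 31 to 22 bases before the start, that in Nfkbiz 13 to 4 bases before it, and that in Nfkb1 at bases 4 to 13 of the transcript. In Nfkb2 the match was GGGACTTTCC, 20 to 11 bases before the start, and 0.111% of all windows held these letters. In Bcl3 it was GGGAAGTCCC, 38 to 29 bases before the start and a match on both strands. Rel, which has no array value here, had 4 overlapping matches in 2 places, and Nfkbie had 1. The transcript starts used for Nfkbia, Nfkb1, Rel and Nfkb2 lie 235, 435, 386 and 2364 bases inside the outermost annotated start of the gene. The window of Nfkbia still covers its outermost start, and those of the other 3 do not. A match is a description of the letters, not of binding, and no match means only that these letters were not in the window.

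**Figure D1:**
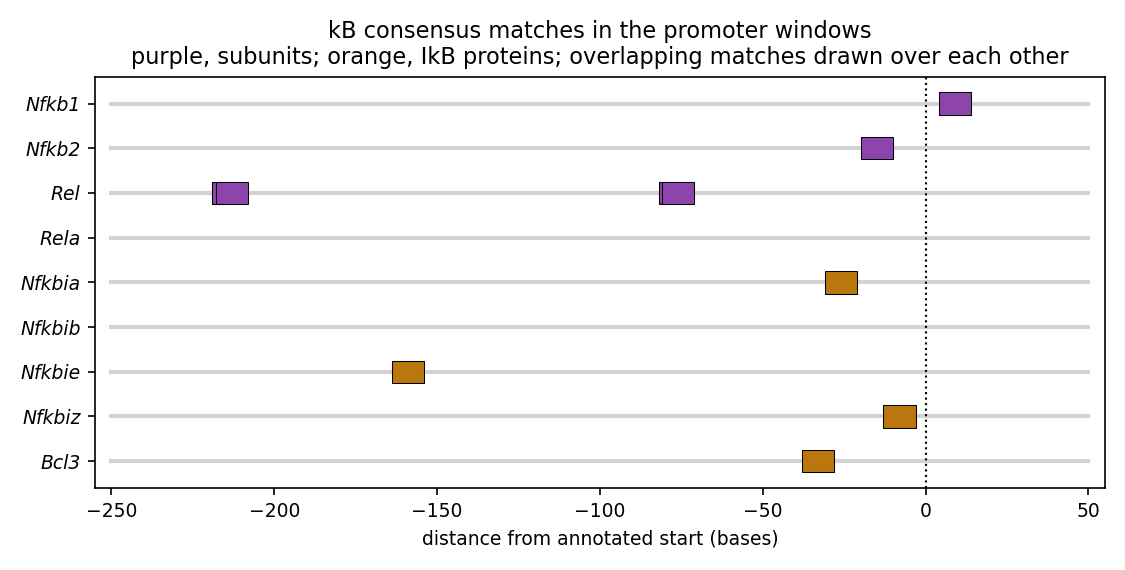
Promoter windows of 9 family genes drawn to scale, with distance from the annotated transcript start in bases along the x axis and each kB consensus match as a box, purple for subunits and orange for IkB proteins. The matches of Nfkbiz, Nfkb2, Nfkbia, Nfkb1 and Bcl3 lie within 38 bases of the start, those of Rel and Nfkbie farther upstream, and Rela and Nfkbib have none.

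Among the subunits, those that carry a transactivation domain are Rela, Relb and Rel. Rela, the main activating partner of the classical pair, had intensities of 1345 and 1060 with IL-1b replicates 1 and 2, against 704 and 673 with vehicle replicates 1 and 2. Both IL-1b arrays were above both vehicle arrays, and the change was the smallest of the family at 0.79 ± 0.17 (log2, SE; limma adjusted p = 0.023). Relb, the activating partner in the alternative pathway, read 593 and 678 with IL-1b, against 165 and 207 with vehicle. The groups were far apart, with a log2 fold change of 1.75 ± 0.20 (adjusted p = 0.0018). Here and below, log2 fold changes are IL-1b over vehicle after an offset of 5.49 intensity units, which understates the change of dim genes, and adjusted p-values are over all 18625 probe sets tested.

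Nfkb1 and Nfkb2 encode long precursors with ankyrin repeats of their own, which are cut to the DNA-binding partners that lack a transactivation domain. Nfkb1 had 1285 and 1757 with IL-1b, against 692 and 558 with vehicle. Its IL-1b arrays differed from each other by 0.45 on the log2 scale and still lay above both vehicle arrays, with a log2 fold change of 1.27 ± 0.20 (adjusted p = 0.0073). Nfkb2, whose precursor holds Relb in the cytoplasm until the alternative pathway has it processed, had 827 and 912 with IL-1b, against 242 and 272 with vehicle. Its log2 fold change was 1.74 ± 0.16 (adjusted p = 7.9e-04), and the replicates of each group were within 0.16 of each other on the log2 scale. Relb and Nfkb2, partners in the alternative pathway, had nearly equal changes, at 1.65 and 1.67 on IL-1b replicate 1 and 1.85 and 1.81 on IL-1b replicate 2 (log2 over the vehicle mean). Similar changes were not particular to this pair, since Nfkbib had 1.77 and 1.69 on these arrays.

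The call of Rela was the least stable. It was lost without vehicle replicate 1 or 2 (adjusted p = 0.12 and 0.19) and without the intensity trend of the variance (0.13), and that of Nfkb1 was lost without the trend (0.080). With each array centred on its median in place of the authors' scaling, the median log2 fold change of all genes moved to -0.21, against -0.01 as deposited, and the calls of Rela and Nfkb1 were lost (adjusted p = 0.42 and 0.12). Relative to the median of all genes, Rela was 0.80 and Nfkb1 1.27 higher. Centring shifts all genes of an array alike, so these 2 values could not differ between the scalings and say nothing about the lost calls. Without vehicle replicate 1 and 2 in turn, the log2 fold change was 0.82 and 0.76 for Rela and 1.42 and 1.11 for Nfkb1.

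**Figure D2:**
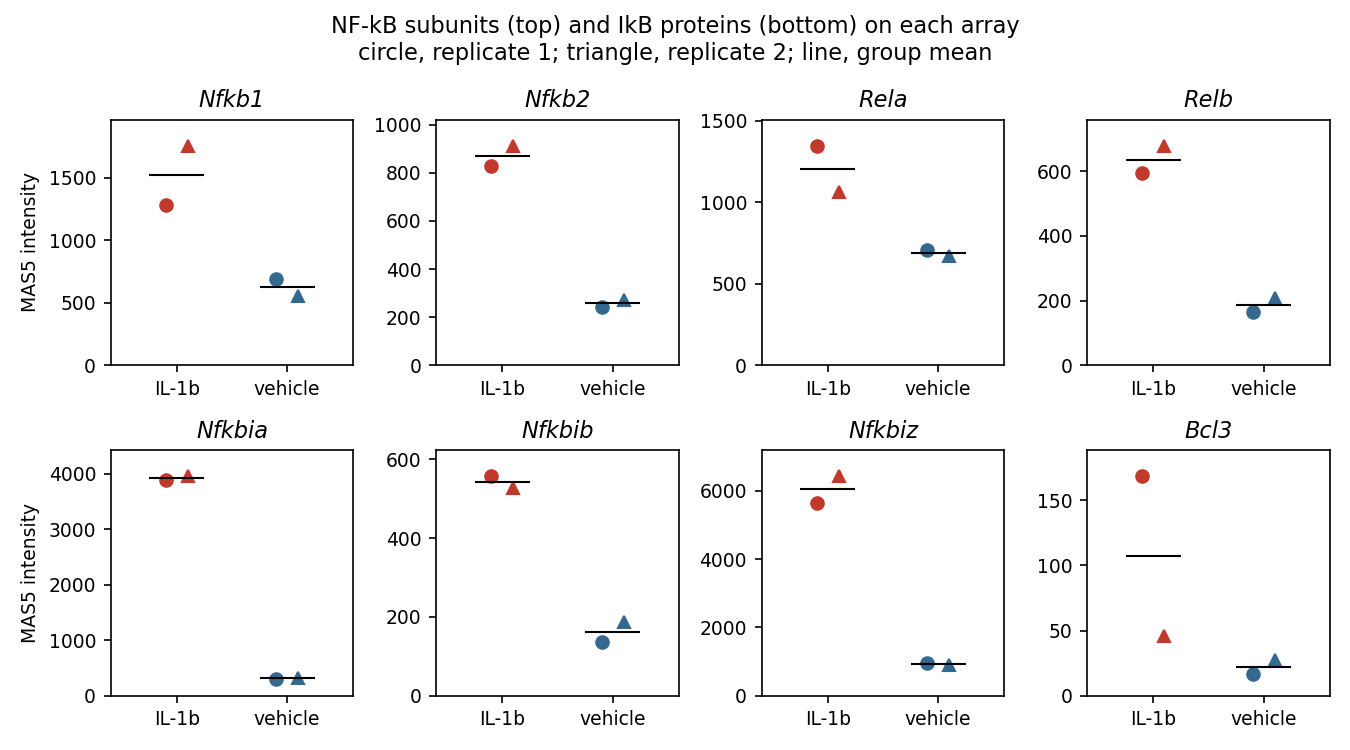
MAS5 intensity (y axis, linear and starting at 0, on its own scale in each panel) of the tested probe set of 8 family members on the 2 IL-1b arrays (red) and the 2 vehicle arrays (blue), with circles for replicate 1, triangles for replicate 2 and a line at the group mean. In every panel both IL-1b arrays lie above both vehicle arrays, a separation seen in 29.4% of all 10000 genes tested. Bcl3 was tested only through its IL-1b arrays, so its panel adds nothing to this. Only in Bcl3 do the IL-1b arrays differ from each other by over 3 times. Levels are not to be compared between panels, since each probe set has its own response.

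Among the classical IkB proteins, which hold NF-kB in the cytoplasm, Nfkbia (IkB alpha) showed the largest change and the closest replicates. Its intensities were 3876 and 3950 with IL-1b replicates 1 and 2, against 296 and 326 with vehicle replicates 1 and 2. It averaged 3913 ± 52.5 with IL-1b and 311 ± 21.2 with vehicle (SD, n = 2 each), a log2 fold change of 3.63 ± 0.14 (adjusted p = 3.2e-05). The difference between the groups was many times the difference within either, and 99.3% of the genes tested had a smaller log2 fold change. Nfkbib (IkB beta), a second cytoplasmic inhibitor, had 557 and 528 with IL-1b, against 136 and 186 with vehicle. Its log2 fold change of 1.73 ± 0.22 (adjusted p = 0.0028) ran from 1.51 to 1.95 when 1 array at a time was left out.

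Nfkbiz (IkB zeta) and Bcl3 are atypical IkB proteins, found in the nucleus, where they bind pairs of the Nfkb1 and Nfkb2 products and can raise or lower transcription. The brighter of the 2 Nfkbiz probe sets had 5656 and 6424 with IL-1b, against 948 and 885 with vehicle, with no overlap. Its log2 fold change was 2.71 ± 0.15 (adjusted p = 1.1e-04), larger than that of 98.8% of the genes tested. The other Nfkbiz probe set was too dim to be tested, at 40.8 and 10.4 with IL-1b, against 48.3 and 5.72 with vehicle, and its groups overlapped.

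Bcl3 was dim throughout. Its brightest probe set had 168 and 45.5 with IL-1b replicates 1 and 2, against 16.5 and 27.0 with vehicle replicates 1 and 2. IL-1b replicate 1, the array with the high background of 76.7, was the high one, and vehicle replicate 1 was below its array's background. The log2 fold change of 1.82 ± 0.75 did not pass (adjusted p = 0.18) and was 0.93 without IL-1b replicate 1 (adjusted p = 0.44) and 2.70 without IL-1b replicate 2 (adjusted p = 0.0011, the single alternative in which Bcl3 passed). The other 2 probe sets of Bcl3 were left out of the test by the filter on dim probe sets. The first had 39.0 and 52.1 with IL-1b, against 24.8 and 5.53 with vehicle, and the second 13.4 and 42.5, against 8.28 and 2.79. In all 3 probe sets both IL-1b arrays were above both vehicle arrays, yet only on IL-1b replicate 2 were all 3 above background. How often probe sets this dim separate was not computed. Bcl3 was kept in the test by its mean log2 intensity of 5.65 over the 4 arrays, near the filter at 5.37, which it reached through the IL-1b arrays.

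Both IL-1b arrays lay above both vehicle arrays for all 7 members that were above background on every array, a separation seen in 29.4% of the 10000 genes tested. Bcl3 separated as well, but it was tested only through its IL-1b arrays and adds nothing to this count. Of the 3 probe sets too dim to be tested, both of Bcl3 separated and that of Nfkbiz did not. With 2 arrays a group an exact permutation test has 6 regroupings and cannot give a two-sided p below 0.33, so single genes rest on the fit across all probe sets.

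The 4 subunits had log2 fold changes of 0.79 to 1.75 with a median of 1.5, and the 4 IkB proteins of 1.73 to 3.63 with a median of 2.26, beside a median of -0.01 over all genes tested. On IL-1b replicate 1 the median change over the vehicle mean was 1.35 for the subunits and 2.66 for the IkB proteins. On IL-1b replicate 2 it was 1.65 for the subunits and 2.25 for the IkB proteins. Without Bcl3 the IkB median was 2.62 and 2.80 on these arrays. These medians describe the members measured here, the changes of the 2 sets overlap, and the difference between them was not tested.

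Gene by gene, Nfkbia and Nfkbiz lay above every measured subunit, and Nfkbib and Bcl3 did not. Nfkbia changed more than each of the 4 subunits on both IL-1b arrays, by 2.66 and 3.03 (log2) more than Rela and by 1.96 and 1.80 more than Relb. Nfkbiz did so too, by 1.66 and 2.18 more than Rela and by 0.96 on each array more than Relb. Nfkbib changed more than Rela, by 0.81 and 1.07, and more than Nfkb1, by 0.73 and 0.20, but not more than Nfkb2 or Relb, from which it differed by 0.15 or less on either array. Bcl3 overlapped with all 4 subunits, being above each on IL-1b replicate 1 and below all but Rela on IL-1b replicate 2. For the classical pair of Rela and Nfkb1, the fold change of the inhibitor Nfkbia was thus 7.17 times that of Rela and 5.16 times that of Nfkb1.

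Ordered by the size of the change, the members ran Nfkbia, Nfkbiz, Bcl3, Relb, Nfkb2, Nfkbib, Nfkb1 and Rela. Nfkbia stood apart from Nfkbiz, with 95% confidence intervals of 3.30 to 3.96 and 2.36 to 3.06 on the log2 scale. Every other pair of neighbours in this order had overlapping intervals. Relb, Nfkb2 and Nfkbib, at 1.75, 1.74 and 1.73, could not be ordered. Nfkbib and Nfkb1, and Nfkb1 and Rela, did not overlap in their values on the 2 IL-1b arrays, although their intervals did.

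**Figure D3:**
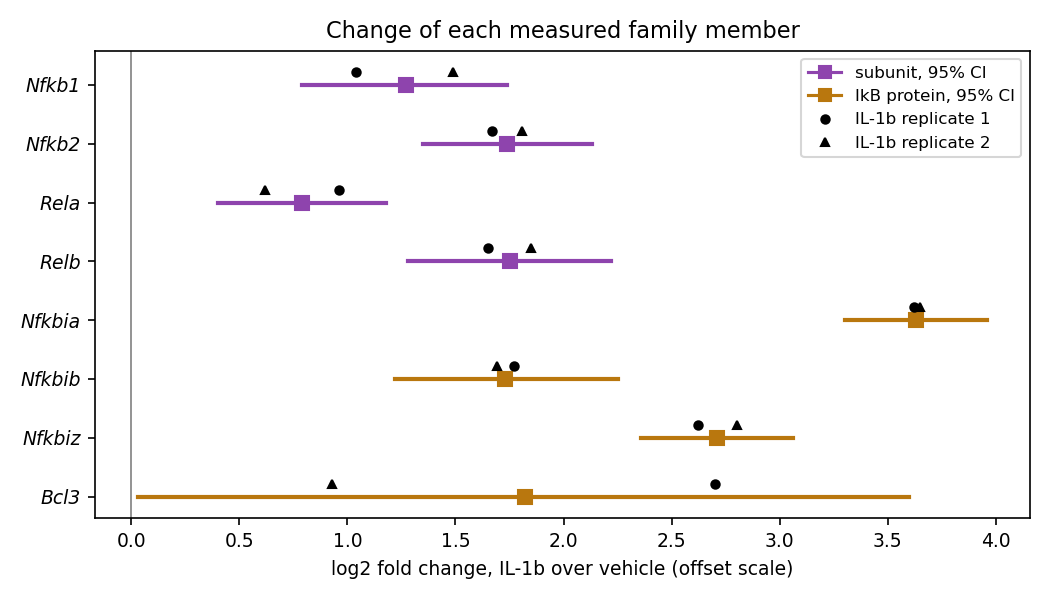
Log2 fold change of each member, IL-1b over vehicle (x axis), with its 95% confidence interval from limma as a bar, purple for subunits and orange for IkB proteins, and the change on each IL-1b array over the vehicle mean as a black circle (replicate 1) or triangle (replicate 2). Nfkbia at 3.63 and Nfkbiz at 2.71 lie to the right of all 4 subunits, and the interval of Bcl3, from 0.03 to 3.60, spans most of the plot.

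Among the genes that act on the family, the share called higher was near that of all genes. The share called lower rests on 1 gene. Of 56 genes in 4 lists, 47 were tested, and 3 were called higher (6.38%) and 1 lower (2.13%), beside 7.19% and 8.13% of all genes. Their median log2 fold change was 0.05, and a gene that did not pass is not shown to be unchanged. Among the kinases that mark IkB for destruction and their adaptors, 1 of 10 rose, 0 fell and 9 did not pass. The 1 was Ikbkb, the catalytic subunit that phosphorylates the classical IkB proteins, with 604 and 703 with IL-1b, against 252 and 273 with vehicle. Its log2 fold change was 1.29 ± 0.17 (adjusted p = 0.0037, and 0.12 with median centring). The partner kinase Chuk, named after its value was seen, had 609 and 1127 with IL-1b, against 818 and 784 with vehicle (log2 fold change 0.05, adjusted p = 0.93). Map3k14, the kinase that starts the alternative pathway and likewise named after its value was seen, had 204 and 67.4, against 104 and 84.5 (0.32, adjusted p = 0.73).

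In the ubiquitin ligase that tags phosphorylated IkB and the enzymes that charge it, 0 of 10 genes passed in limma at an adjusted p of 0.05. Btrc, which recognises phosphorylated IkB, had the highest change of the list by brightest probe set and was named after its value was seen. It had 240 and 285 with IL-1b, against 140 and 157 with vehicle, and a log2 fold change of 0.79 ± 0.23 (adjusted p = 0.071). Skp1, an adaptor of the same ligase and the lowest of the list, had 4442 and 4533, against 6608 and 6511 (-0.55 ± 0.16, adjusted p = 0.066). Skp1 too was named after its value was seen. Another probe set of Cdc34, also named after its value was seen, had a log2 fold change of 1.57 (limma adjusted p = 0.063). With the mean of a gene's probe sets, 1 of the 10 genes passed upward.

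Among 16 other regulators of NF-kB tested, 1 rose, 1 fell and 14 did not pass. Pdlim2, a nuclear ubiquitin ligase known in mouse to end the activity of Rela, had 301 and 339 with IL-1b, against 1215 and 1272 with vehicle, and was the 1 that fell (log2 fold change -1.94 ± 0.15, adjusted p = 3.6e-04). Ppp4c, the catalytic subunit of a phosphatase, had 579 and 315 with IL-1b, against 144 and 143 with vehicle, and rose by 1.54 ± 0.30 (adjusted p = 0.018, and 0.097 without the intensity trend). Nfkbid, a further nuclear IkB protein named after its values were seen, was too dim to be tested, with 27.8 and 35.2 against 45.6 and 12.9. Among 11 co-regulators, 1 rose, 0 fell and 10 did not pass. The 1 was Hmga1, an architectural DNA-binding protein known to assist NF-kB at promoters, with 5016 and 3264 with IL-1b, against 413 and 359 with vehicle (log2 fold change 3.37 ± 0.22, adjusted p = 1.8e-04).

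These counts rest on the array set. Leaving out either IL-1b array raised the number of calls both in the lists and over all probe sets. In such fits the lone IL-1b array is assumed to vary like the vehicle pair. The added calls are therefore not a result about the lists. With 1 array left out, log2 fold changes ran from 1.19 to 1.40 for Ikbkb and from 3.06 to 3.68 for Hmga1. They ran from 1.11 to 1.98 for Ppp4c and from -2.03 to -1.86 for Pdlim2. The 4 genes named kept their direction in all alternatives run. The filter, the variance trend, the replicate block, the mean of probe sets and the 2-fold minimum could not alter it. The call of Ikbkb was lost with median centring and that of Ppp4c without the intensity trend.

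**Figure D4:**
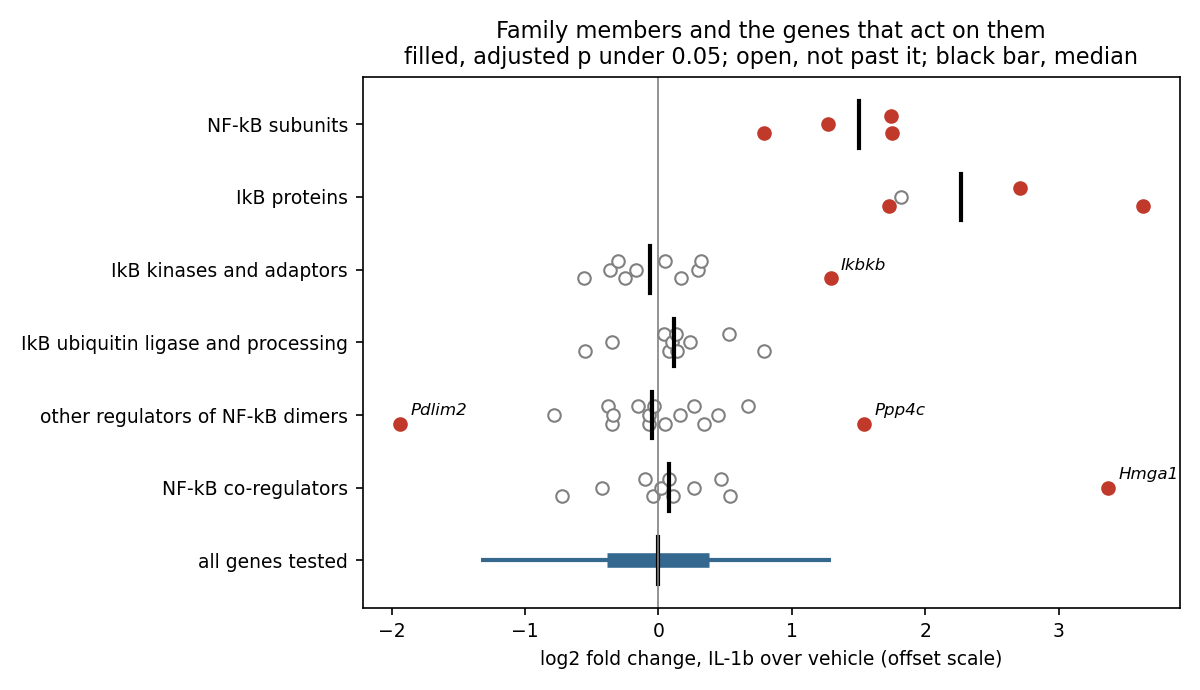
Log2 fold change, IL-1b over vehicle (x axis), of the measured subunits and IkB proteins and of the genes in 4 lists that act on them, 1 point per gene, filled where the adjusted p is under 0.05, with a black bar at each median. For all genes tested the thick bar spans -0.38 to 0.38 (25th to 75th percentile) and the thin bar -1.33 to 1.30 (5th to 95th). The subunits and IkB proteins lie to the right, and the 4 lists have medians of -0.06 to 0.12.

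The genes whose pattern over the 4 arrays was most like that of Nfkbia, among 9924 genes compared, were Rftn1, Shc4, Tslp, Zmynd15 and Bst1. Likeness was the root mean square difference of log2 intensities centred on each gene's own mean, and it was 0.068 to 0.135 for these 5. Their log2 fold changes were 3.38 to 3.74. For Nfkb2 the nearest were Emb, Acot7, Relb, Cebpd and Ugcg, at 0.031 to 0.076, with log2 fold changes of 1.64 to 1.80. Relb, at 0.059, was the third nearest to Nfkb2 of all genes compared. Over 4 arrays in 2 groups this measure mostly ranks genes by the size of their change.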

How the data were processed

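Total RNA of 4 samples, 2 with IL-1b and 2 with vehicle, was biotin-labelled for single-colour Affymetrix arrays, as the labels' protocols state. Per the submitters' processing notes, MAS5 gave the deposited intensity of each probe set, and its version or settings are not stated there. They come without detection calls, and all 4 arrays have a trimmed mean (2% off either end) of 250.1, so no further scaling was applied. Such scaling leaves dim values with most of the error.

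Before log2, 5.49 was added (the 10th percentile over all arrays). Of the probe sets other than 57 controls, those with a mean log2 value at or above the 40th percentile were kept, 18625 in all. The model was fitted in R 4.3.3 by limma 3.58.1 (lmFit, eBayes with an intensity trend, 2 residual and 4.91 prior degrees of freedom), with Benjamini-Hochberg adjustment over all of them and a threshold of 0.05. The procedure was tested on simulated data. A gene was represented by its brightest tested probe set with 1 symbol, and the platform's annotation gave 1 symbol to 20826 probe sets, several to 436, and listed no entry for 9780. Precision is limited by having 4 arrays.

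The members and lists were chosen with earlier results of these data known. The genes named are all members, up to 3 genes past the threshold in each of 4 lists, the 5 genes most like Nfkbia and Nfkb2, a few markers of the cell types checked, and others said to be named after their values were seen. Promoter sequences are from RefSeq on GRCr8. Alternatives tried were the offset, the scaling, the filter, the variance trend, the replicate number as a block, each array left out, the choice of probe set and a 2-fold minimum.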

Additional observations from a re-analysis of the deposited data

How the results depend on the processing

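Each of the 8 members was recomputed under 14 alternatives (111 values, since Bcl3 was removed by the filter at the 60th percentile). The filter, the variance trend, the replicate block, the mean of probe sets and the 2-fold minimum cannot alter the log2 fold change of a member. Only the other alternatives could have changed a direction. All 111 kept their direction and 103 their side of the threshold, 7 lost it (Rela 5 times and Nfkb1 2 times) and Bcl3 passed once. The count of members higher, 7, ran from 5 (median centring, no intensity trend) to 8, and 0 were lower in any. The subunit median of 1.5 was 1.30 with median centring and 1.35 to 1.65 with 1 array left out. The IkB median of 2.26 was 2.71 with the filter at the 60th percentile, which removes Bcl3, and 2.15 to 2.66 with 1 array left out. The 2503 probe sets called became 1637 with median centring, 963 without the intensity trend and 1357 to 8666 with 1 array left out. Pathway genes lower numbered 2 in place of 1 with quantile normalization, and pathway genes higher numbered 5 in place of 3 with the mean of a gene's probe sets. The replicate numbers are not said to mark anything shared, and differences between replicates 1 and 2 correlated at 0.075 between the groups. With the replicate block 3276 probe sets were called, 7 members were higher and 2 pathway genes were lower. With 2 arrays a group and no detection calls, dim members such as Bcl3 are measured least well.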

Other observations

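Of the 8 members measured, 5 lie on rat chromosome 1 (Nfkb2, Rela, Relb, Nfkbib and Bcl3). Relb and Bcl3 are close neighbours there, with 9 protein-coding genes between them in RefSeq order. Of these 9, 5 were tested, 2 were called higher and 0 lower in limma at an adjusted p of 0.05, beside 7.19% higher and 8.13% lower of all 10000 genes tested. With only 5 genes tested, this count says little about the stretch. All 5 are named here after their values were seen. Nectin2, a cell adhesion protein, had 474 and 468 with IL-1b, against 211 and 202 with vehicle, a log2 fold change of 1.17 ± 0.18 (adjusted p = 0.0063). Tomm40, the channel of the mitochondrial import complex, had 758 and 849 with IL-1b, against 404 and 444 with vehicle (0.91 ± 0.16, adjusted p = 0.010). Apoe, Bcam and Clptm1, also in this stretch, did not pass (adjusted p = 0.42, 0.79 and 0.16).

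Of the 47 pathway genes tested, 22 had other probe sets that were tested. Of these 28 other probe sets, 1 passed, beside 13.4% of all 18625 probe sets tested. It was that of Peli1 (named after its values were seen), a ubiquitin ligase of IL-1 receptor signalling, with a log2 fold change of 1.14 (adjusted p = 0.015), against 0.67 at its brightest probe set (adjusted p = 0.18).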
